A study of Mus musculus with 6 samples.

Results

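The translation initiation factors (eIFs) and elongation factors (eEFs) of mouse Th1 cells were examined at the level of their mRNAs. Members were all protein-coding genes of the count table whose names begin with Eif1 to Eif6 or with Eef1 or Eef2, apart from the eIF2 kinases (Eif2ak), which are described as regulators. This rule gave 64 genes of the 54532 listed, 51 named for initiation factors (Eif) and 13 named for elongation factors (Eef). The cells were splenic CD4+ T cells of male C57BL/6 mice aged 6 to 8 weeks, isolated by magnetic negative selection and cultured on anti-CD3ε with IL-2, IL-12, anti-CD28 and anti-IL-4. By the methods of the study, the 3 control cultures (Th1) received vehicle (0.1% DMSO). The 3 others (ALX-5407-treated Th1) received 500 nM ALX-5407, which blocks glycine uptake through the transporter GlyT1. The results of the study call the controls untreated, and they are called vehicle here. All cultures shared the Th1 conditions, and the comparison asks what the inhibitor changed in Th1 cells. The labels give 72 h under Th1 conditions for both groups and do not say how long the inhibitor was present. The methods of the study give 24 h of exposure for the RNA sequencing. The legend of its RNA sequencing figure instead describes treatment with ALX-5407 and culture under Th1 conditions for 3 days. The length of exposure is therefore unclear. The labels call the cultures biological replicates without saying whether they came from separate mice, so the p-values measure the spread between these cultures.

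Translation begins when eIF2 delivers the initiator methionyl-tRNA, together with eIF1, eIF1A, eIF3 and eIF5, to the small ribosomal subunit, while the cap-binding complex eIF4F (eIF4E, the helicase eIF4A and the scaffold eIF4G) recruits that subunit to the mRNA. eIF5B then joins the large subunit, after which eEF1 brings each aminoacyl-tRNA and eEF2 moves the ribosome along by a codon. In activated T cells this machinery is known to expand and to be controlled through mTOR, which acts on the eIF4E-binding proteins, and through phosphorylation of eIF2.

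The libraries held 30801753 to 36727788 counts. Levels are given as CPM, counts scaled to a common library size with TMM factors, and levels of different genes are compared only per kilobase of gene length. T cell markers were abundant in every library (summed level of 7 CD4 T cell genes, 2233 to 2376 CPM with vehicle and 2167 to 2223 CPM with ALX-5407), with 4 of the 7 called lower (Cd4, Cd3d, Cd3g and Trbc1) and 1 called higher (Cd28). The summed level of 5 Th1 genes was 1213 to 1394 CPM in Th1 cells and 984 to 1022 CPM in ALX-5407-treated Th1 cells, with 1 gene called higher (Tbx21) and 2 called lower (Ifng and Stat4). Markers of B cells (4 genes) summed to 5.52 to 6.73 CPM and to 7.42 to 10.4 CPM, and 2 of them were called higher. The 2 CD8 T cell genes summed to 9.25 to 9.59 CPM and to 6.71 to 8.87 CPM, with 1 called lower. Each of the myeloid (5 genes), NK cell (3) and erythroid (4) lists summed to 0.715 CPM or less. The part of these shifts in the results on translation factors was not tested. In bulk RNA, fewer cells of a type and less RNA per cell cannot be told apart.

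Translation factor mRNAs moved in both directions, and most by modest amounts. Of the 64 members, 62 had enough reads to be tested, and 60 of these had a mean of at least 50 counts. With ALX-5407, 16 members rose and 14 fell at an adjusted p under 0.05 in edgeR's quasi-likelihood test, while 32 were not called. Among all 15938 genes tested, 24.5% rose and 23.2% fell, close to the 25.8% and 22.6% of the members, so the factors as a whole were called about as often as other genes. The groups did not overlap for 32 of the 62 members, against 55.5% of all genes tested. The median log2 fold change was -0.04 over the members and 0.01 over all genes tested, whose quartiles lay at -0.38 and 0.34. Scaling bears on the split of calls, in which 53.3% of the called members were higher, compared with 65.5% when library totals alone were used (19 higher, 10 lower) and 42.4% with upper-quartile factors (14 higher, 19 lower). The tests were repeated with other scalings (library totals alone, RLE factors and upper-quartile factors) and other tools (DESeq2 and limma-voom). Other choices of genes were no filter on low counts, a filter of 1 CPM and protein-coding genes alone. A further fit took out how the trend of level on gene length differed between libraries (the length trend). These alternatives are named beside a member where they changed its call.

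As a pool, these mRNAs differed between the groups by less than the spread between libraries. All members together held 4.20 ± 0.137% of the counts in Th1 cells and 4.15 ± 0.0754% in ALX-5407-treated Th1 cells (SD, n = 3 each, two-sided exact permutation test, p = 0.7). Eef1a1 and Eef2 alone accounted for 62.1 ± 1.17% and 61.2 ± 0.555% of the member counts (exact permutation p = 0.4). Per kilobase, Eef1a1 stood highest (7373 CPM per kilobase in Th1 cells), followed by Eef2 (2479), Eif5a (540), Eef1b2 (480), Eef1g (459) and Eif3h (382). An exact permutation test of 3 against 3 cultures cannot go below p = 0.1.

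**Figure D1:**
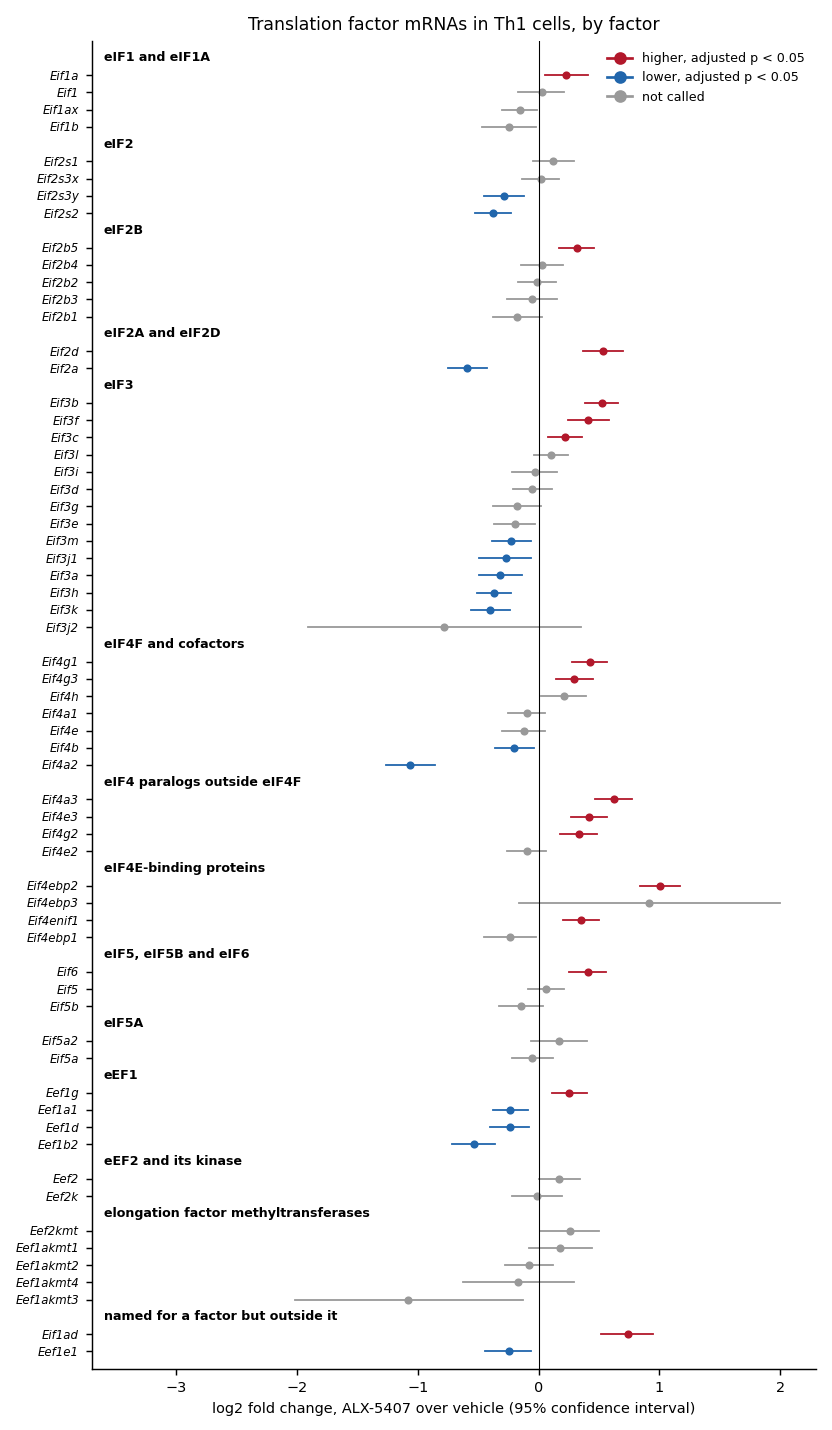
Log2 fold change of each tested translation factor gene (ALX-5407 over vehicle, x axis), grouped by factor, with points for the estimate and lines for the 95% confidence interval. Red points rose (16), blue points fell (14) and gray points were not called (32), and most factors with several subunits hold more than 1 color.

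At the thresholds of the study for differentially expressed genes (a fold change of more than 1 in either direction on the log2 scale beside an adjusted p under 0.05), 1 member rose and 1 fell, compared with 3.36% and 6.68% of all genes tested. With the smaller limit of 0.5 on the log2 scale, 5 members rose (Eif4ebp2, Eif1ad, Eif4a3, Eif2d and Eif3b) and 3 fell (Eif4a2, Eif2a and Eef1b2), against 12.6% higher and 14.5% lower among all genes. The groups did not overlap for any of these 8 genes, beside 55.5% of all genes tested. The 8 genes were chosen on these same values, which favors such separation.

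**Figure D2:**
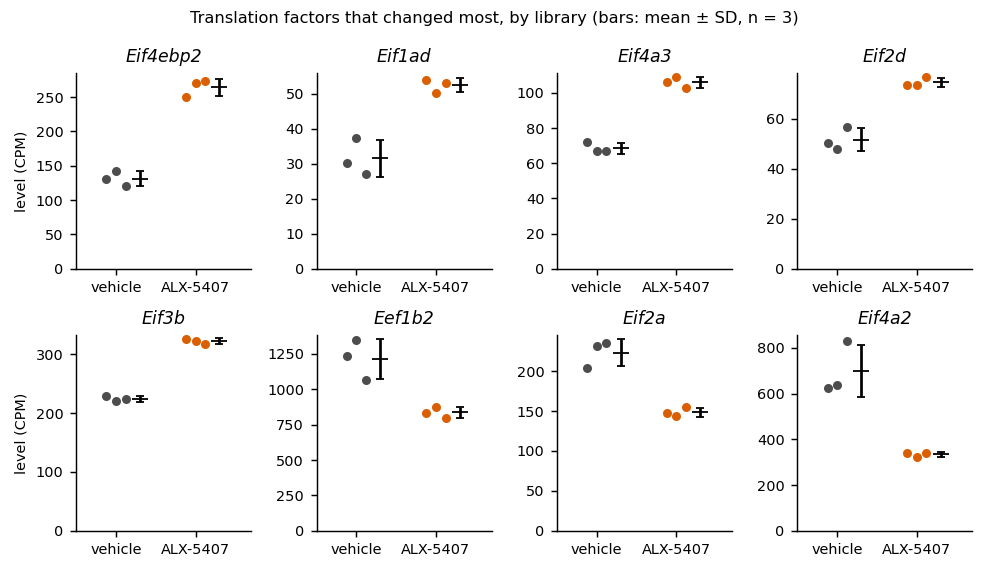
Level in CPM (y axis, starting at 0) of the 8 called translation factor genes with a log2 fold change of at least 0.5 in either direction, with 1 point per library and bars for the mean ± SD. In each panel every ALX-5407 library lies on the same side of all 3 vehicle libraries, above them in the first 5 panels and below them in the last 3. The genes were chosen on these same values, which favors such separation.

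Among the subunits of the cap-binding complex, the helicase paralogs parted. eIF4A unwinds structure in the leader of the mRNA, and Eif4a1 and Eif4a2 encode its closely related forms, whereas Eif4a3 encodes a core protein of the exon junction complex. Eif4a2 (chromosome 16, 23107444 to 23114136, GRCm38) was at 626, 639 and 830 CPM in the Th1 libraries and at 341, 322 and 340 CPM in the ALX-5407-treated libraries. Every treated culture was well below the lowest control, and Th1 replicate 3 was the highest of all. The level fell 2.09-fold (log2 fold change -1.06, SE 0.095, edgeR adjusted p = 2.01e-07), and the log2 fold change was -0.94 without Th1 replicate 3, which is short of the fold threshold of a differentially expressed gene. Eif4a1 (chromosome 11, 69666936 to 69672423) gave 901, 857 and 935 CPM against 863, 818 and 832 CPM. These ranges overlapped, and the log2 fold change was -0.10 (95% confidence interval -0.25 to 0.05, adjusted p = 0.251). Eif4a3 (chromosome 11, 119288363 to 119300089) moved the other way, from 72.2, 66.8 and 66.9 CPM to 106, 109 and 103 CPM. It rose 1.54-fold (log2 fold change 0.62, SE 0.0711, adjusted p = 2.67e-06), with the 3 treated libraries above all controls.

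Eif4a2 accounted for 36.1%, 37.7% and 41.9% of the Eif4a1 and Eif4a2 counts per kilobase in Th1 cells, and for 24.3%, 24.2% and 24.9% in ALX-5407-treated Th1 cells. The ranges did not overlap, and the two-sided exact permutation test gave p = 0.1, the smallest it allows for 3 against 3 (0.15 after Benjamini-Hochberg adjustment over the 9 families compared in this way, of which 6 had shares that did not overlap). Reads of Eif4a1 may be split with copies, since the processed pseudogene Eif4a-ps4 matches it and together with a further pseudogene held 15% of their summed counts. With these counts added, the log2 fold change of Eif4a1 was -0.09 (edgeR adjusted p = 0.335). Exons of Rfc4 on the opposite strand cover 3.6% of the exon bases of Eif4a2, and Rfc4 itself rose (log2 fold change 0.38, adjusted p = 0.00984), opposite to Eif4a2.

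The scaffold genes rose together. Eif4g1, the main scaffold of eIF4F, went from 406, 420 and 390 CPM to 554, 524 and 554 CPM, a log2 fold change of 0.42 (SE 0.0688, adjusted p = 9.34e-05). Eif4g3, its paralog with the same role, went from 158, 167 and 142 CPM to 185, 196 and 191 CPM (log2 fold change 0.29, SE 0.0746, adjusted p = 0.00397). Eif4g2, also called DAP5, lacks the eIF4E-binding site and serves initiation without eIF4E. It stood at 697, 717 and 746 CPM in Th1 cells and at 895, 877 and 947 CPM with ALX-5407 (log2 fold change 0.33, SE 0.0692, adjusted p = 0.000869). In all 3 genes the treated libraries lay above every control. The share of Eif4g2 among the counts per kilobase of the scaffold genes was 50.4 ± 1.83% and 49.3 ± 0.663% (SD, n = 3 each, exact permutation p = 0.4).

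The cap-binding proteins did not move as a set. Eif4e, the cap-binding subunit of eIF4F, was at 147, 176 and 150 CPM in Th1 cells and at 147, 136 and 151 CPM after treatment, with overlapping ranges (log2 fold change -0.12, 95% confidence interval -0.30 to 0.05, adjusted p = 0.222). Eif4e2, a cap-binding protein known as a translational repressor, gave 90.7, 97.1 and 84.6 CPM against 82.3, 85.4 and 86.6 CPM (log2 fold change -0.10, adjusted p = 0.289). Eif4e3, a further cap-binding relative, rose from 69.0, 72.4 and 68.0 CPM to 92.2, 92.2 and 95.9 CPM, and its groups did not overlap (log2 fold change 0.42, SE 0.0697, adjusted p = 0.000112). A gene model with low counts on the same strand shares 14.8% of its exon bases. Per kilobase, Eif4e made up 38.2%, 41.3% and 39.5% of the 3 genes in Th1 cells and 33.9%, 32.0% and 33.7% with ALX-5407 (exact permutation p = 0.1). Eif4e1b, known from oocytes, had 1 read in 1 library and none in the others, and was not tested. Of the cofactors of eIF4A, Eif4b, which stimulates the helicase, fell from 858 ± 76.1 to 744 ± 16.9 CPM (SD, n = 3 each, log2 fold change -0.20, adjusted p = 0.0362). That call was lost without any single library other than Th1 replicate 3, with adjusted p from 0.0545 (without ALX-5407 replicate 3) to 0.138 (without ALX-5407 replicate 1), and the log2 fold changes lay from -0.22 to -0.17. It was also lost with library totals alone (-0.14, adjusted p = 0.109). Eif4h, a relative of Eif4b in function, measured 291 ± 39.5 and 336 ± 6.84 CPM (log2 fold change 0.21, adjusted p = 0.06), and it passed the threshold without Th1 replicate 2 (log2 fold change 0.29, adjusted p = 0.0142), with library totals alone (0.0118), limma-voom (0.0448) and no filter (0.0201). With the length trend taken out, Eif4e and Eif4e2 were called lower (adjusted p = 0.0414 and 0.0363).

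**Figure D3:**
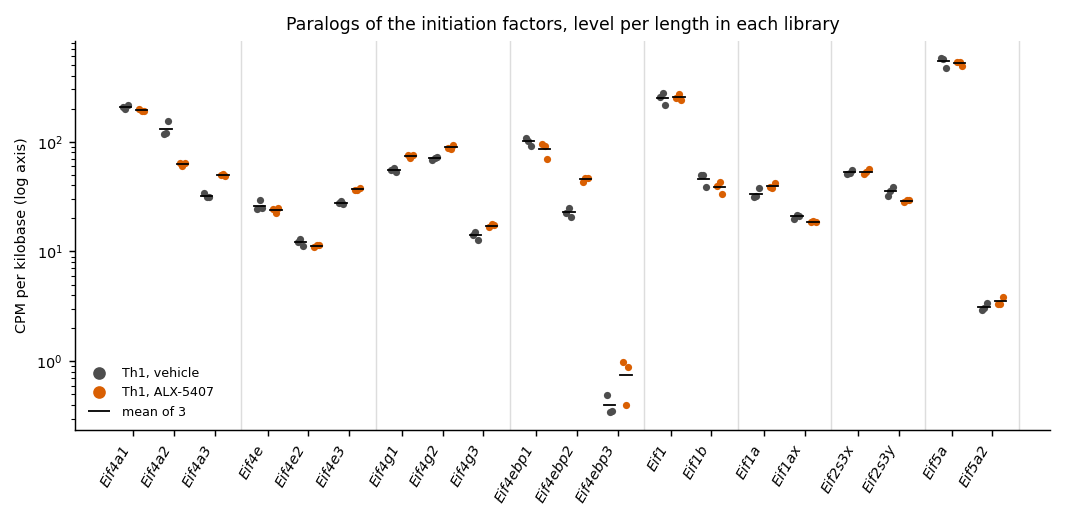
Level in CPM per kilobase of gene length (y axis, log scale) of the initiation factor paralogs in each library, with gray points for vehicle, orange points for ALX-5407 and a black line for the mean of 3 libraries. Eif4a2, at 131 CPM per kilobase in Th1 cells, fell to 62.6 with ALX-5407, while Eif4ebp2 rose from 22.8 to 45.7 and the 3 Eif4g genes rose in parallel.

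Of the eIF4E-binding proteins, which sequester eIF4E until mTOR phosphorylates them, Eif4ebp2 showed the largest increase among all members. Eif4ebp2 (chromosome 10, 61428491 to 61452661) was at 131, 143 and 120 CPM in the Th1 libraries and at 250, 270 and 273 CPM in the ALX-5407-treated libraries. The lowest treated library was far above the highest control. Its level rose 2.01-fold (log2 fold change 1.005, SE 0.0781, edgeR adjusted p = 4.98e-08). It sat at the fold threshold itself, since the log2 fold change was 0.995 without Th1 replicate 1, 0.929 without Th1 replicate 3, 0.997 without ALX-5407 replicate 2 and 0.986 without ALX-5407 replicate 3. The adjusted p was at most 3.77e-06 under every alternative.

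Eif4ebp1, the form with the highest level of this family in both groups, gave 238, 224 and 202 CPM against 210, 201 and 153 CPM. The ranges overlapped and the gene was not called (log2 fold change -0.23, SE 0.101, adjusted p = 0.0679), although it passed the threshold without Th1 replicate 3 (log2 fold change -0.31, adjusted p = 0.0162) or without ALX-5407 replicate 1 (log2 fold change -0.31, adjusted p = 0.0361). It was called lower as well with DESeq2 (adjusted p = 0.0463), upper-quartile factors (0.0322), no filter (0.018), the filter of 1 CPM (0.049) and protein-coding genes alone (0.0284). Eif4ebp2 held 17.3%, 19.5% and 18.4% of the counts per kilobase of the family in Th1 cells and 30.9%, 33.6% and 40.1% with ALX-5407 (exact permutation p = 0.1). Eif4ebp3 was near the limit of detection, at 0.369, 0.255 and 0.260 CPM against 0.736, 0.295 and 0.656 CPM (log2 fold change 0.92, 95% confidence interval -0.16 to 2.00, adjusted p = 0.154). In the annotation 67.3% of its exon bases are shared with a further gene. Eif4enif1, which carries eIF4E into the nucleus and to P-bodies, rose from 122 ± 0.604 to 156 ± 10.7 CPM (SD, n = 3 each, log2 fold change 0.35, adjusted p = 0.000707).

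The genes of eIF3, the largest initiation factor, moved in both directions. Of its 14 genes, 3 rose (Eif3b, Eif3f and Eif3c), 5 fell (Eif3k, Eif3h, Eif3a, Eif3j1 and Eif3m) and 6 were not called. That is 21.4% higher and 35.7% lower, beside 24.5% and 23.2% of all genes tested, and this difference was not tested. Eif3b (chromosome 5, 140419328 to 140443360), a scaffold of the core of the complex, was at 229, 220 and 224 CPM in Th1 cells and at 327, 323 and 317 CPM with ALX-5407. All treated libraries were higher than all controls by more than the spread within either group (log2 fold change 0.52, SE 0.0665, adjusted p = 8.18e-06). Eif3h (chromosome 15, 51786558 to 51865523), which had the highest level per kilobase of the complex, fell from 607, 630 and 609 CPM to 485, 478 and 466 CPM. Here too the groups did not overlap (log2 fold change -0.37, SE 0.0668, adjusted p = 0.00025).

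Eif3f rose (log2 fold change 0.41, adjusted p = 0.000657) and Eif3c rose by 0.22 on the log2 scale (adjusted p = 0.0135), a call that was lost without ALX-5407 replicate 2 (0.22, adjusted p = 0.0514) and with upper-quartile factors (0.16, adjusted p = 0.0523). Eif3k (log2 fold change -0.40, adjusted p = 0.000391) and Eif3a, the largest subunit (log2 fold change -0.32, adjusted p = 0.00462), fell. The log2 fold change of Eif3m was -0.23 (adjusted p = 0.0246), and this call was lost without Th1 replicate 3 (-0.16, adjusted p = 0.0503) and without ALX-5407 replicate 1, 2 or 3 (-0.21, -0.23 and -0.23, adjusted p = 0.104, 0.077 and 0.0549), as well as with library totals alone (-0.17, adjusted p = 0.0996) and the length trend (-0.18, adjusted p = 0.0636). The 6 subunits that were not called (Eif3d, Eif3e, Eif3g, Eif3i, Eif3l and Eif3j2) included Eif3e and Eif3l, whose libraries did not overlap between groups. Eif3e (log2 fold change -0.20, adjusted p = 0.0531) was called lower with DESeq2 (adjusted p = 0.0255), limma-voom (0.0499), RLE factors (0.0392), upper-quartile factors (0.0181), the filter of 1 CPM (0.033), protein-coding genes alone (0.0173) and the length trend (0.00672), so that DESeq2 and limma-voom each gave 3 genes of eIF3 higher and 6 lower. It also passed without Th1 replicate 1 (log2 fold change -0.26, adjusted p = 0.0224) or without Th1 replicate 2 (-0.24, adjusted p = 0.0383), and Eif3g without Th1 replicate 3 (-0.30, adjusted p = 0.00249).

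Eif3j1 and Eif3j2 encode the loosely bound j subunit, and their reads are hard to separate, because Eif3j2 matches Eif3j1 at 99.4% identity over its whole length of 2379 bases. Eif3j1 was at 71.4, 101 and 88.3 CPM in Th1 cells and at 66.2, 73.0 and 76.4 CPM with ALX-5407 (log2 fold change -0.27, SE 0.103, adjusted p = 0.038). The ranges overlapped, and the call was lost without Th1 replicate 2 (-0.16, adjusted p = 0.197), without ALX-5407 replicate 1 (-0.21, adjusted p = 0.168), without ALX-5407 replicate 2 (-0.28, adjusted p = 0.0828) and with library totals alone (-0.21, adjusted p = 0.0973). Eif3j2 ranged from 2.05 to 21.5 CPM among the Th1 libraries and from 3.11 to 13.1 CPM among the treated ones (log2 fold change -0.78, 95% confidence interval -1.91 to 0.35, adjusted p = 0.247). It passed the threshold without Th1 replicate 3 (-1.30, adjusted p = 0.0063) or ALX-5407 replicate 1 (-1.55, adjusted p = 0.0361) and with no filter (adjusted p = 6.08e-07), and its values are uncertain for the reason above. Spg11, whose exons overlap 19.0% of those of Eif3j1 on the opposite strand, rose (log2 fold change 0.31, adjusted p = 0.00694).

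**Figure D4:**
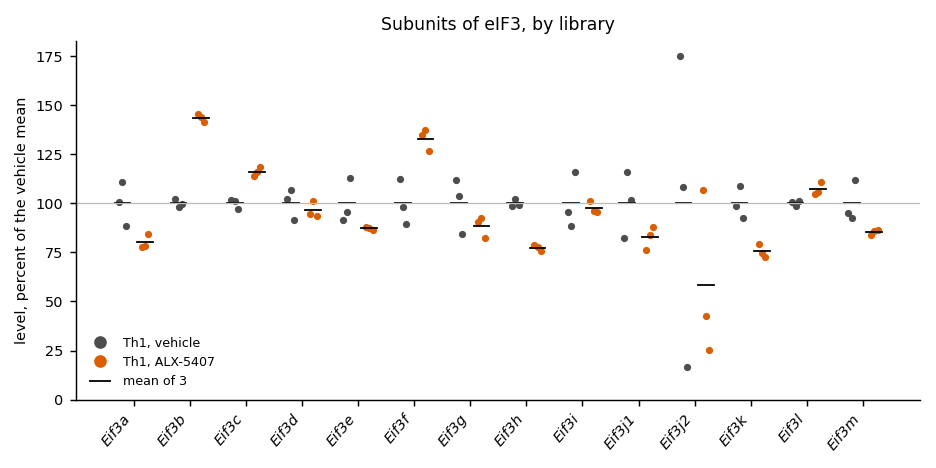
Level of the 14 genes of eIF3 in each library as a percent of the vehicle mean of that gene (y axis, starting at 0), with gray points for vehicle, orange points for ALX-5407 and black lines for the means. Eif3b, Eif3c and Eif3f lie above 100 in all treated libraries, whereas Eif3a, Eif3h and Eif3k lie below all controls, and Eif3j2 scatters widely within both groups.

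In eIF2, the carrier of initiator tRNA, the subunits also differed. Eif2s2, the beta subunit (chromosome 2, 154871410 to 154892935), fell from 401, 461 and 449 CPM to 331, 335 and 342 CPM, with every treated library below every control (log2 fold change -0.38, SE 0.0727, adjusted p = 0.000417). A processed pseudogene that matches it held 11.7% of their summed counts, and adding them left the log2 fold change at -0.38. The gamma subunit is encoded on both sex chromosomes. Eif2s3x was at 192, 199 and 212 CPM in Th1 cells and at 195, 202 and 214 CPM after treatment (log2 fold change 0.02, 95% confidence interval -0.14 to 0.17, adjusted p = 0.874). Eif2s3y fell from 132, 148 and 160 CPM to 117, 122 and 122 CPM, without overlap (log2 fold change -0.29, SE 0.0778, adjusted p = 0.00627). The Y copy thus held 40.0 ± 1.25% of the counts per kilobase of the pair in Th1 cells and 35.1 ± 0.749% with ALX-5407 (SD, n = 3 each, exact permutation p = 0.1). The 2 genes match at 86.4% identity over 1426 aligned bases, and how reads that fit both were counted is not given in the sources used here. Eif2s1, the alpha subunit that the eIF2 kinases phosphorylate, was not called (148 ± 16.7 and 161 ± 5.25 CPM, log2 fold change 0.12, adjusted p = 0.247), but passed the threshold without Th1 replicate 3 (0.20, adjusted p = 0.0183).

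eIF2B reloads eIF2 with GTP, and of its 5 subunits the catalytic subunit was called. Eif2b5 (chromosome 16, 20498817 to 20509323) was at 71.3, 68.5 and 70.5 CPM in Th1 cells and at 85.5, 86.4 and 89.8 CPM in ALX-5407-treated Th1 cells. Its groups did not overlap (log2 fold change 0.32, SE 0.0693, adjusted p = 0.00129). Eif2b2, the subunit with the highest level per kilobase in Th1 cells, gave 64.5, 59.7 and 62.9 CPM against 60.7, 63.7 and 60.5 CPM (log2 fold change -0.02, 95% confidence interval -0.17 to 0.14, adjusted p = 0.873). The others (Eif2b1, Eif2b3 and Eif2b4) had log2 fold changes from -0.18 to 0.02 and were not called, apart from Eif2b1 without Th1 replicate 2 (-0.27, adjusted p = 0.044).

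Eif2a and Eif2d, which encode proteins outside eIF2 that can bring initiator tRNA to the ribosome, moved apart. Eif2a (chromosome 3, 58525821 to 58557501) was at 204, 231 and 235 CPM in the Th1 libraries and at 147, 144 and 155 CPM in the treated libraries. The highest treated library was below the lowest control, and the level fell 1.5-fold (log2 fold change -0.59, SE 0.0747, adjusted p = 7.97e-06). Eif2d (chromosome 1, 131153181 to 131187658) was at 50.3, 47.8 and 56.8 CPM and at 73.7, 73.7 and 76.8 CPM. It rose 1.45-fold in all 3 treated libraries (log2 fold change 0.53, SE 0.0793, adjusted p = 3.89e-05). The opposite-strand gene Rassf5, which shares 1.1% of the exon bases of Eif2d, rose as well (log2 fold change 0.73, adjusted p = 5.11e-07). Serp1, also on the opposite strand, shares 1.2% of the exon bases of Eif2a (mean counts 6550.8 for Serp1 and 6181 for Eif2a). Without knowledge of the strand setting, reads of the shared bases cannot be assigned for either member.

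eIF1 and eIF1A hold the small subunit open for scanning. Eif1 was at 538, 582 and 450 CPM against 527, 569 and 499 CPM, and its paralog Eif1b at 56.4, 55.7 and 43.1 CPM against 44.8, 48.1 and 37.9 CPM. Both pairs of ranges overlapped, with log2 fold changes of 0.02 (adjusted p = 0.853) and -0.25 (adjusted p = 0.0707). Eif1b passed the threshold without Th1 replicate 3 (-0.38, adjusted p = 0.00277) or ALX-5407 replicate 2 (-0.32, adjusted p = 0.0482), and with upper-quartile factors (0.0333), no filter (0.0331) and protein-coding genes alone (0.03). The eIF1A paralogs had opposite signs. Eif1a was at 89.5, 92.1 and 110 CPM in Th1 cells and at 111, 109 and 121 CPM with ALX-5407 (log2 fold change 0.23, SE 0.0837, adjusted p = 0.033), and Eif1ax was at 105, 114 and 111 CPM and at 98.6, 99.1 and 98.5 CPM (log2 fold change -0.16, SE 0.0686, adjusted p = 0.0727). The ranges of Eif1a overlapped slightly, and its call was lost without Th1 replicate 1 or 2 (0.17 and 0.18, adjusted p = 0.165 and 0.131) and without ALX-5407 replicate 1 or 3 (0.25 and 0.19, adjusted p = 0.0578 and 0.122), with upper-quartile factors (0.0989) and with protein-coding genes alone (0.0776). The ranges of Eif1ax did not overlap, and it was called lower with DESeq2 (adjusted p = 0.0447), upper-quartile factors (0.0188), the filter of 1 CPM (0.0368), protein-coding genes alone (0.0195) and the length trend (0.0109). Eif1a held 61.7 ± 2.42% of the counts per kilobase of the pair in Th1 cells and 67.8 ± 1.24% after treatment (SD, n = 3 each, exact permutation p = 0.1).

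Of the genes of eIF5, eIF5B and eIF6, Eif6 was called and Eif5 and Eif5b were not. Eif5, which triggers GTP hydrolysis by eIF2, was at 334, 363 and 338 CPM against 352, 352 and 375 CPM (log2 fold change 0.06, adjusted p = 0.521), and Eif5b was not called (log2 fold change -0.15, adjusted p = 0.191) other than with the length trend taken out (-0.24, adjusted p = 0.0284). Eif6, which keeps free large subunits from joining, rose from 85.2, 81.6 and 84.0 CPM to 116, 114 and 102 CPM. All of its treated libraries were above the controls (log2 fold change 0.41, SE 0.0733, adjusted p = 0.000244). Eif5a, which helps the ribosome through difficult peptide bonds and carries the amino acid hypusine, was at 1366, 1353 and 1129 CPM against 1273, 1265 and 1174 CPM. Its paralog Eif5a2 was far lower, at 14.8, 15.5 and 16.9 CPM against 16.7, 16.8 and 19.4 CPM. Neither was called (log2 fold changes -0.05 and 0.17, adjusted p = 0.635 and 0.211), and Eif5a2 made up 0.583 ± 0.104% and 0.673 ± 0.0898% of the counts per kilobase of the pair (SD, n = 3 each, exact permutation p = 0.3).

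Among the elongation factors, the tRNA-delivering complex eEF1 changed in all 4 of its tested genes, 3 lower and 1 higher. Of all genes tested, 23.2% were lower and 24.5% higher. Eef1a1, the GTPase that carries aminoacyl-tRNA (chromosome 9, 78478449 to 78489151), was at 18788, 19059 and 17298 CPM in Th1 cells and at 15289, 15517 and 15974 CPM with ALX-5407. Every treated library was below every control (log2 fold change -0.24, SE 0.0685, adjusted p = 0.00908), although the call was lost without ALX-5407 replicate 1 (-0.22, adjusted p = 0.0711) or ALX-5407 replicate 2 (-0.23, adjusted p = 0.0524). The nucleotide exchange subunit Eef1b2 (chromosome 1, 63176825 to 63180486) fell furthest, from 1232, 1345 and 1067 CPM to 835, 876 and 800 CPM. Its groups were clearly separated (log2 fold change -0.54, SE 0.0838, adjusted p = 6.38e-05). Of the remaining subunits, Eef1d fell from 197 ± 13.5 to 167 ± 7.46 CPM (log2 fold change -0.24, adjusted p = 0.0137), a call lost without Th1 replicate 2 (-0.20, adjusted p = 0.0596), without ALX-5407 replicate 2 (-0.24, adjusted p = 0.0542) and without ALX-5407 replicate 3 (-0.20, adjusted p = 0.0679). Eef1g instead rose from 1194 ± 35.7 to 1423 ± 6.45 CPM (SD, n = 3 each, log2 fold change 0.25, adjusted p = 0.00512). The muscle and neuron form Eef1a2 had 1 read in 1 control library and none elsewhere.

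Eef2, the translocase of elongation (chromosome 10, 81176631 to 81182498), was at 9155, 8222 and 7341 CPM in Th1 cells and at 8989, 9433 and 9403 CPM with ALX-5407. Th1 replicate 1 lay within the range of the treated libraries, and the gene was not called (log2 fold change 0.17, SE 0.08, adjusted p = 0.0908). Without that library the log2 fold change was 0.25 (adjusted p = 0.0229), and the gene was also called higher with library totals alone (0.23, adjusted p = 0.0157) and with no filter (0.18, adjusted p = 0.035). Eef2k, the kinase that inhibits eEF2, measured 42.7 ± 5.99 and 42.3 ± 1.99 CPM (log2 fold change -0.01, adjusted p = 0.921). None of the 5 methyltransferases of the elongation factors was called in edgeR, and at an unadjusted p under 0.05 there were 1 higher and 1 lower. Eef1akmt1 was at 11, 11.4 and 14.1 CPM against 14.4, 13.8 and 13.1 CPM (log2 fold change 0.18, adjusted p = 0.243). Eef1akmt3 was low throughout, at 1.60, 0.957 and 0.780 CPM against 0.453, 0.831 and 0.285 CPM (log2 fold change -1.08, SE 0.446, adjusted p = 0.0568). It passed the threshold without Th1 replicate 3 (-1.29, adjusted p = 0.0364) or ALX-5407 replicate 2 (-1.58, adjusted p = 0.0193) and with limma-voom, upper-quartile factors, no filter and protein-coding genes alone (adjusted p from 0.0382 to 0.0482). Of the methyltransferases, limma-voom thus called 1 and DESeq2 called 0. Eef2kmt passed it without ALX-5407 replicate 3 (0.34, adjusted p = 0.0464) and with library totals alone (0.32, adjusted p = 0.0304), and Eef1akmt1 with the length trend taken out (0.44, adjusted p = 0.00754).

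**Figure D5:**
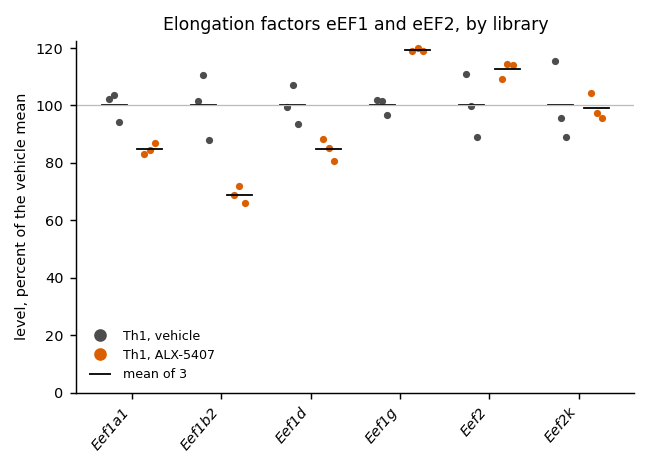
Level of the eEF1 genes, Eef2 and Eef2k in each library as a percent of the vehicle mean of that gene (y axis, starting at 0), with gray points for vehicle, orange points for ALX-5407 and black lines for the means. Eef1a1, Eef1b2 and Eef1d lie below all controls in the treated libraries and Eef1g above them, while the groups overlap for Eef2 and Eef2k.

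Set side by side by name, 15 of the 50 tested Eif genes rose and 10 fell. Of the 12 tested Eef genes, 1 rose and 4 fell. The Eef class includes Eef2k, the 5 methyltransferases and Eef1e1, which are not elongation factors themselves. The Eif class likewise includes the eIF4E-binding proteins, Eif4a3 and Eif1ad. The median log2 fold changes were -0.03 and -0.12, and the difference between these classes was not tested. Among all genes tested, 24.5% rose and 23.2% fell, and neither class was tested against these shares. Eif1ad and Eef1e1 carry the names of factors but act elsewhere. Eif1ad, which encodes a protein with an eIF1A-like domain (chromosome 19, 5366813 to 5371511), rose from 30.2, 37.3 and 27.1 CPM to 54.0, 50.3 and 53.1 CPM, with all treated libraries above the controls (log2 fold change 0.74, SE 0.102, adjusted p = 1.95e-05). Exons of Banf1 on the opposite strand cover 15.3% of its exon bases, and the log2 fold change of Banf1 was 0.19 (adjusted p = 0.11). Eef1e1, a component of the multi-tRNA synthetase complex, fell by 0.25 on the log2 scale (adjusted p = 0.0308), and this call was lost without Th1 replicate 3 (-0.16, adjusted p = 0.0982), without ALX-5407 replicate 1 (-0.25, adjusted p = 0.0761), without ALX-5407 replicate 2 (-0.20, adjusted p = 0.149) and with library totals alone (-0.19, adjusted p = 0.109).

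Many mRNAs of the translation machinery begin with a terminal oligopyrimidine (TOP) tract, a C followed by a run of C and T, through which mTOR and LARP1 control their translation. Of 9 members known as TOP mRNAs, 2 rose (Eef1g and Eif3f), 5 fell (Eef1a1, Eef1b2, Eef1d, Eif3h and Eif4b) and 2 were not called (Eef2 and Eif3e), beside 24.5% higher and 23.2% lower among all genes tested. As described above, the calls of Eef1a1, Eef1d and Eif4b were each lost without single libraries. The median log2 fold change of the 9 genes was -0.20. RefSeq start sites (GRCm38.p6) were at hand for 48 of the 64 members. A tract of C followed by at least 4 bases that are each C or T, searched in the sense direction over the 10 bases before the annotated start and the first 20 bases from it, was present in 33.3% of these members and in 37.2% of the 10405 tested genes with a start site. Of the 16 tested members with a tract, 6 rose, 5 fell and 5 were not called, and of the 31 without, 5 rose, 7 fell and 19 were not called. Of the 5 known TOP members with a start site, 4 had such a tract in the window and Eef1b2, which fell most, had none. The windows of these 5 and of the eIF2 gamma pair are shown so that the tracts, which differ in length and place, can be compared with the direction of change (30 bases each, of which the first 10 precede the start, tract in capitals).
Eef1a1 (fell; chr9:78481705-78481734, - strand): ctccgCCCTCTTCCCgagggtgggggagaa
Eef1b2 (fell; chr1:63176821-63176850, + strand): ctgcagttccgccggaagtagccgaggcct
Eif4b (fell; chr15:102073763-102073792, + strand): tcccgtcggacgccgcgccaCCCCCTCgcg
Eif3f (rose; chr7:108934405-108934434, + strand): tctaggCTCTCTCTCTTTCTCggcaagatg
Eef2 (not called; chr10:81176621-81176650, + strand): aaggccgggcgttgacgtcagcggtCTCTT
Eif2s3x (not called; chrX:94212632-94212661, - strand): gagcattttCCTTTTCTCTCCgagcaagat
Eif2s3y (fell; chrY:1010585-1010614, + strand): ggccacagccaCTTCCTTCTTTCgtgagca
None of the tracts shown begins at the first base of the transcript as annotated. Those of Eif4b, Eef2 and Eif2s3y begin inside it, at bases 11, 16 and 2. Those of Eef1a1, Eif3f and Eif2s3x begin before it, at -5, -4 and -1. The start of Eef1a1 in RefSeq lies 7427 bases from the end that the count table gives, and an annotated start need not be the start used in T cells. The E-box CACGTG (both strands, 250 bases before to 50 after the start) was found in 22.9% of the members and 10% of tested genes, and of the 11 tested members with it 2 rose, 2 fell and 7 were not called. The amino acid response motif TGATGNAA (both strands) was found in 2.08% and 2.20%.

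Genes that work beside these factors moved in both directions as well. They comprise regulators and modifying enzymes, but also helicases, termination and recycling factors and mitochondrial translation factors. Of 49 such genes in 6 lists, 19 rose, 11 fell and 19 were not called, or 38.8% higher and 22.4% lower beside 24.5% and 23.2% of all genes tested, and this difference was not tested. Among the eIF2 kinases and phosphatase subunits (2 rose and 2 fell of 7), the kinase genes parted. Eif2ak3, which encodes the stress kinase PERK, fell from 75, 74.7 and 78.5 CPM to 44.4, 45.5 and 46.3 CPM (log2 fold change -0.74, SE 0.0717, adjusted p = 4.37e-07), whereas Eif2ak2, which encodes the double-stranded RNA sensor PKR, rose from 24.3, 23.0 and 21.9 CPM to 34.3, 33.2 and 36.6 CPM (log2 fold change 0.59, SE 0.0878, adjusted p = 3.93e-05). Neither gene's groups overlapped. Of the cap and TOP mRNA regulators (2 rose and 1 fell of 6) no call reached 0.5 on the log2 scale.

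Among poly(A)-binding proteins and initiation helicases (4 rose and 3 fell of 11), Paip2, an inhibitor of poly(A)-binding protein, fell from 223, 219 and 244 CPM to 157, 151 and 143 CPM (log2 fold change -0.61, SE 0.0732, adjusted p = 4.89e-06). Dhx29, a helicase that helps the small subunit scan structured leaders, rose from 30.2, 27.7 and 31.2 CPM to 43.9, 44.2 and 48.9 CPM (log2 fold change 0.62, SE 0.0849, adjusted p = 1.74e-05). Neither overlapped between groups. Beside 24.5% higher and 23.2% lower among all genes tested, 4 of 6 termination and recycling factors rose and 2 were not called. The largest of these increases was that of the ribosome rescue factor Pelo, at low counts, from 1.97, 2.39 and 1.53 CPM to 2.24, 3.89 and 3.62 CPM (log2 fold change 0.73, SE 0.255, adjusted p = 0.0267), and its ranges overlapped.

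In the 9 enzymes that modify eIF5A and eEF2, 2 rose and 2 fell (22.2% each), beside 24.5% higher and 23.2% lower among all genes tested. Of the genes for diphthamide synthesis on eEF2, Dph5 fell from 28.7, 30.9 and 29.6 CPM to 19.8, 17.5 and 20 CPM (log2 fold change -0.64, SE 0.0929, adjusted p = 3.07e-05) and Dph1 rose from 4.02, 3.41 and 3.96 CPM to 5.07, 5.31 and 6.13 CPM (log2 fold change 0.53, SE 0.168, adjusted p = 0.0153). The ranges of neither overlapped. Of 10 mitochondrial translation factors, 5 rose and 3 fell, and Mtif3, a mitochondrial initiation factor, fell from 14.4, 16.7 and 14.5 CPM to 12.1, 10.5 and 9.41 CPM (log2 fold change -0.51, SE 0.124, adjusted p = 0.00293).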

How the data were processed

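The data were 6 RNA sequencing libraries, 3 per group. The authors deposited raw counts of reads per gene in each library, not normalized, beside gene names, lengths and GRCm38 coordinates. The submitters' processing notes name fastp, HISAT2 2.0.5 and featureCounts 1.5.0-p3 with build mm10. The strand setting and the handling of multi-mapped reads are not given in the sources used here. The labels state poly-T bead selection and the methods ribosomal RNA depletion, so which was used is unclear.

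Counts of all 54532 genes were analysed with edgeR 4.0.16 (R 4.3.3): filterByExpr defaults (minimum count 10, minimum total 15), TMM, glmQLFit and glmQLFTest, and Benjamini-Hochberg adjustment over the 15938 genes tested, with adjusted p under 0.05 as the threshold. The study's own tool, DESeq2 (1.42.0), and limma-voom (limma 3.58.1) were alternatives, as were other scalings, filters, a replicate block, a length trend, addition of processed pseudogenes (BLAST 2.17.0 against GENCODE M21, at least 95% identity over 50%) and each library left out. The procedure was tested on simulated data. No pair of replicates was alike within counting noise (ratio of chi-square to its degrees of freedom 5.35 to 20.2). Each library counted as 1 sample, although this check cannot tell whether the cultures came from separate mice.

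Depth was 30801753 to 36727788 counts, and errors are wide where the mean is below 50 counts. The members, lists and rule for named genes (adjusted p under 0.05 with an absolute log2 fold change of at least 0.5, the highest level per kilobase and smallest p in each factor, and all paralogs) were chosen with earlier results of these data known. Other members are named where a call is described.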

Additional observations from a re-analysis of the deposited data

How the results depend on the processing

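Of the 30 called members, 22 (14 higher, 8 lower) kept their call under all 17 alternatives, and 16 of the 32 others were called under none. Over 1052 member values in alternatives, 961 kept their side of the threshold, 33 lost and 58 gained a call. The sign changed in 33 of the 961, at 11 genes that were called in none of those fits. Differentially expressed members that rose numbered 0 instead of 1 with RLE size factors, upper-quartile factors, DESeq2, at least 1 CPM in 3 libraries, protein-coding genes alone and a length trend, because Eif4ebp2 lies at the fold threshold. Those that fell numbered 2 instead of 1 with upper-quartile factors, limma-voom, no filter and protein-coding genes alone. Without 1 library they ranged from 0 to 1 (rose) and from 1 to 2 (fell). The share of called members that rose was 44.1% with protein-coding genes alone. Correlations of deviations between cultures of the same replicate number were -0.008, 0.004 and 0.063, and only replicate 3 was highest with its own number. Such values cannot tell whether the numbers pair the cultures. A replicate block gave 18 members higher and 19 lower, with 2 differentially expressed members lower. Depth limits Eif4ebp3, Eef1akmt3 and the 2 untested members.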
